A study of Mus musculus with 18 samples.

Results

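Interferon-stimulated genes were followed across 18 libraries of bulk RNA sequencing from GFP+ Tcf21-lineage cells of the neonatal mouse heart. The 9 genes were chosen as interferon response genes and not by their values in a contrast, but with earlier results of these data known. They were looked up by symbol among the 55453 gene symbols of the count table. They are Stat2, Irf9 and Irf7 (transcription factors), Isg15 (a ubiquitin-like modifier), and Ifit1, Ifit2, Ifit3, Bst2 and Ifi35 (effectors). All 9 were found, and all 9 were among the 16170 genes that passed the filter on low counts and were tested. On GRCm38, Ifit2 (chr19:34550694-34576419), Ifit3 (chr19:34583531-34588731) and Ifit1 (chr19:34640871-34650009) lie in a row on the plus strand of chromosome 19. Stat2 lies at chr10:128270559-128292849, Irf9 at chr14:55603571-55610030 and Ifi35 at chr11:101448407-101458698 on plus strands, and Irf7 at chr7:141262706-141266481, Isg15 at chr4:156199424-156200818 and Bst2 at chr8:71534255-71537456 on minus strands. All 9 are protein-coding, and reads were counted over their exons.

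The cells came from C57BL/6J pups carrying Tcf21-MerCreMer and Rosa-mTmG, all of which received tamoxifen at P1, controls included. In these pups the Tcf21 locus drives an inducible Cre, and cells that were recombined keep GFP while all others stay tdTomato-positive, so a library holds the labelled lineage and not every cardiac fibroblast. Baseline groups were un-manipulated hearts taken at P2 and at P10. Sham groups had the heart exposed at P2 or P10 and resected groups had the apex cut away at the same ages, and both were collected 3 days later, at P5 or P13. Each of the 6 groups had 3 libraries. Time since tamoxifen rose with age, and by the paper's methods hearts of P10 to P13 were digested for longer than those of P2 to P5. Neither can be told apart from age. The number of pups behind a library and their sex are not given in the sources used here, so a p-value measures the spread between libraries and may in part be technical.

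Type I interferons bind the receptor formed by Ifnar1 and Ifnar2, whose kinases phosphorylate Stat2. Stat2 joins Irf9 in ISGF3, a complex that enters the nucleus and switches on genes holding an interferon-stimulated response element in their promoters. Irf7 is itself induced in this way and drives further interferon transcription, which makes the response self-amplifying. Fibroblasts are among the cells classically used to study this response.

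The promoter windows of these genes are shown as a description, and a link between the matches and the levels was not tested. RefSeq promoter sequences on GRCm38.p6 were matched by symbol for all 9 genes and cover 250 bases before to 50 bases after a start site. Ifit2 and Irf9 had 2 windows each, which gave 11 windows in all. The response element was searched on both strands as GAAA, any 2 bases, then GAAA. Matches lay in the windows of 5 of the 9 genes (55.6%), namely Isg15, Bst2, Ifit1, Ifit3 and Stat2, and in those of 1079 of all 27025 genes in the promoter table (3.99%). Of 58 further interferon-stimulated genes in the promoter table, 32 held a match (55.2%). Capitals mark every base that lies in a match to the response element, and matches on the opposite strand read TTTC, 2 bases, TTTC. All windows below are written 5′ to 3′ on the strand of the gene.
Isg15, minus strand, chr4:156200769-156201068: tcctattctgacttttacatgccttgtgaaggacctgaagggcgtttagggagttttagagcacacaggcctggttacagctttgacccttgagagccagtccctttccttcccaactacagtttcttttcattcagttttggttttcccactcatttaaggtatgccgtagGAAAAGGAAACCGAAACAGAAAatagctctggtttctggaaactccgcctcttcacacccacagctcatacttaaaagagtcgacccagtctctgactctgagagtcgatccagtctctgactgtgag
Bst2, minus strand, chr8:71537423-71537722: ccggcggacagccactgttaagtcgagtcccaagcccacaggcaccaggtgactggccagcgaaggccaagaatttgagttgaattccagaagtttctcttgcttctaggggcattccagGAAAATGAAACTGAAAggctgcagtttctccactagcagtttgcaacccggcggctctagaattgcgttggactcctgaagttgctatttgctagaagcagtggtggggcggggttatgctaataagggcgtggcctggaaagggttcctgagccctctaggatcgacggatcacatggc
Ifit1, plus strand, chr19:34640639-34640938: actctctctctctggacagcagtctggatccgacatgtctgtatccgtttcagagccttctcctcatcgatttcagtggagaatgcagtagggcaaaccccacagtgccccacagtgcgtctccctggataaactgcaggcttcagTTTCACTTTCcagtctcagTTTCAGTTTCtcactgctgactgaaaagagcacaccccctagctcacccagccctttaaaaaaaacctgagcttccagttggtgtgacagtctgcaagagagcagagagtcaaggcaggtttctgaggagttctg
Ifit3, plus strand, chr19:34583279-34583578: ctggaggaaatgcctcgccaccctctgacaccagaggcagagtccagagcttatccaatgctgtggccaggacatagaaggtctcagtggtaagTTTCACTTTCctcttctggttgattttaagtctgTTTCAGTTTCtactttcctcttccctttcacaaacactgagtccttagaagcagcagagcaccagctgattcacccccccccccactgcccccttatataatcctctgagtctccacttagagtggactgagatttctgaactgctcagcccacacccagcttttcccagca
Stat2, plus strand, chr10:128270248-128270547: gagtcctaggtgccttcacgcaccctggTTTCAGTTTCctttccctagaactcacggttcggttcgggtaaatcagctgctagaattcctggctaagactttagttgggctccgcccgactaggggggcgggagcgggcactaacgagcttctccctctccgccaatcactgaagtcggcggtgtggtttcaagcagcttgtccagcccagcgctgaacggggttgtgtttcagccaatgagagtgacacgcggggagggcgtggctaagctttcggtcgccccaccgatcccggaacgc

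Isg15 held 3 overlapping matches that began 78, 72 and 66 bases before the start site. Bst2 held 2 overlapping matches at 130 and 124 bases before it. Ifit1 (104 and 85 bases before) and Ifit3 (156 and 122 bases before) each held 2 separate matches, and Stat2 held 1 at 222 bases before. These letters were not found in the windows of Irf7, Irf9, Ifit2 or Ifi35. The gamma-activated site, TTC, any 3 bases, then GAA, was found in the windows of Bst2, Ifit2 and Ifi35, or 3 of 9 genes (33.3%) against 9.55% of all genes. In Bst2 the gamma-activated site overlapped a response element. A match is a string of letters and does not show binding.

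The libraries held 10462737 to 22980554 counted reads. The fibroblast label was checked against 11 markers, none of which was at 0 in any library, and Tcf21 itself was at 203 to 447 CPM, library-size-scaled counts, over the 18 libraries. CPM here are relative to library sizes scaled by the trimmed mean of M-values (TMM). One library stood apart for the genes described here: P10 resected replicate 3 had the highest CPM of all 18 libraries for 8 of the 9 genes. Results of the 9 genes that rest on it are given with and without it. In bulk samples, fewer responding cells and less RNA per cell cannot be told apart.

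Compared per length, as CPM per kilobase of annotated exon (RPKM), Bst2 was the most abundant of the 9 genes at P2 baseline, with 159 ± 37.0 RPKM (SD, n = 3). Bst2 encodes tetherin, a membrane protein that holds budding viruses at the cell surface. Isg15 followed with 80.0 ± 19.9 RPKM, below every Bst2 value. The other 7 genes lay between 33.0 ± 2.53 RPKM for Ifi35 and 11.8 ± 5.32 RPKM for Ifit1, and each overlapped its neighbour in that order. At P10 baseline Bst2 was still first with 34.6 ± 6.47 RPKM, while Isg15 was at rank 5 with 4.70 ± 2.95 RPKM and Ifit1 last with 0.683 ± 0.753 RPKM.

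Un-manipulated hearts at P2 had high levels of the interferon-stimulated genes, and un-manipulated hearts at P10 had low levels. All 9 genes were lower in every P10 baseline library than in every P2 baseline library, and 7 of the 9 had their lowest group mean at P10 baseline. Isg15, whose product is conjugated to other proteins, stood at 51.6, 77.8 and 52.0 CPM in the P2 baseline libraries and at 6.13, 2.35 and 2.17 CPM in the P10 baseline libraries. All 3 P2 values exceeded the highest of the other 14 libraries outside P10 resected replicate 3, which was 24.8 CPM in P2 sham replicate 2. Isg15 fell by 4.08 on the log2 scale from P2 to P10 (SE 0.85, edgeR adjusted p = 0.0111).

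Irf7, the factor that amplifies interferon transcription, was at 74.4, 133 and 57.3 CPM at P2 baseline and at 16.9, 10.1 and 15.98 CPM at P10 baseline. It fell by 2.63 on the log2 scale (SE 0.71, edgeR adjusted p = 0.0426). Bst2 went from 108, 149 and 174 CPM to 28.1, 38.0 and 27.6 CPM. Its log2 fold change was -2.20 (SE 0.54, edgeR adjusted p = 0.0256). For both genes, as for Isg15, no library outside P2 baseline and P10 resected replicate 3 reached the lowest P2 baseline value.

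Stat2 and Irf9, which join in ISGF3, were also lower at P10, without passing the threshold. Stat2 was at 79.2, 155 and 38.9 CPM at P2 baseline and at 11.6, 14.8 and 36.9 CPM at P10 baseline, and the closest values of the groups nearly met. Its log2 fold change was -2.12 (SE 0.61, edgeR adjusted p = 0.0603). Irf9, the DNA-binding partner that recognises the response element, was at 99.7, 87.5 and 70.3 CPM and then at 34.0, 41.0 and 37.3 CPM, with a log2 fold change of -1.20 (SE 0.41, edgeR adjusted p = 0.108).

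The IFIT proteins bind foreign RNA and hold back its translation. Ifit1 was at 21.7, 47.5 and 24.6 CPM at P2 baseline and at 0, 3.96 and 1.48 CPM at P10 baseline, where replicate 1 held no read of it. That absence allows up to 3 reads, or 0.182 CPM. Its log2 fold change of -4.09 was as large as that of Isg15 but had a larger SE of 1.41 (edgeR adjusted p = 0.115). Ifit3 went from 28.7, 69.7 and 20.7 CPM to 7.70, 8.45 and 6.12 CPM, with a log2 fold change of -2.41 (SE 0.81, edgeR adjusted p = 0.102). Ifi35, a protein that interacts with other interferon-induced factors, differed least by fitted log2 fold change, at -0.99, and Irf9 and Ifit2 followed. Ifit2 had 45.2 to 65.5 CPM at P2 and 15.5 to 37.9 CPM at P10, and Ifi35 had 54.3 to 62.1 CPM against 15.7 to 39.8 CPM.

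In this comparison of P10 with P2 baseline, edgeR called 3 of the 9 genes, all lower at P10, where 709 of all 16170 genes were called (4.38%). All 9 had an unadjusted p under 0.05, as did 3022 of all 16170 genes. The separation of the groups seen in all 9 was seen, in the same direction, in 1955 of all genes tested (12.1%). The median log2 fold change of the 9 genes was -2.20, beside -0.03 over all genes tested. With P10 resected replicate 3 left out of the fit, which is in neither group but adds to the spread the groups share, 6 genes were called (Isg15, Irf7, Bst2, Ifit3, Stat2 and Irf9) at 3.97% of all genes. Without P10 baseline replicate 2 none was called. Without P10 baseline replicate 3 only Stat2 was, and without P2 baseline replicate 2 only Isg15. Bst2 also lost its call without P2 baseline replicate 3. Irf7 lost its call without any single library of P2 baseline, P2 resected or P10 baseline, and without P2 sham replicate 3, P10 sham replicate 2 or P10 sham replicate 3. DESeq2 called 5 of the 9, among them neither Ifit2, Irf9 nor Ifi35, at 9.73% of all genes. It gave Isg15 no adjusted p in any of the comparisons reported here.

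**Figure D1:**
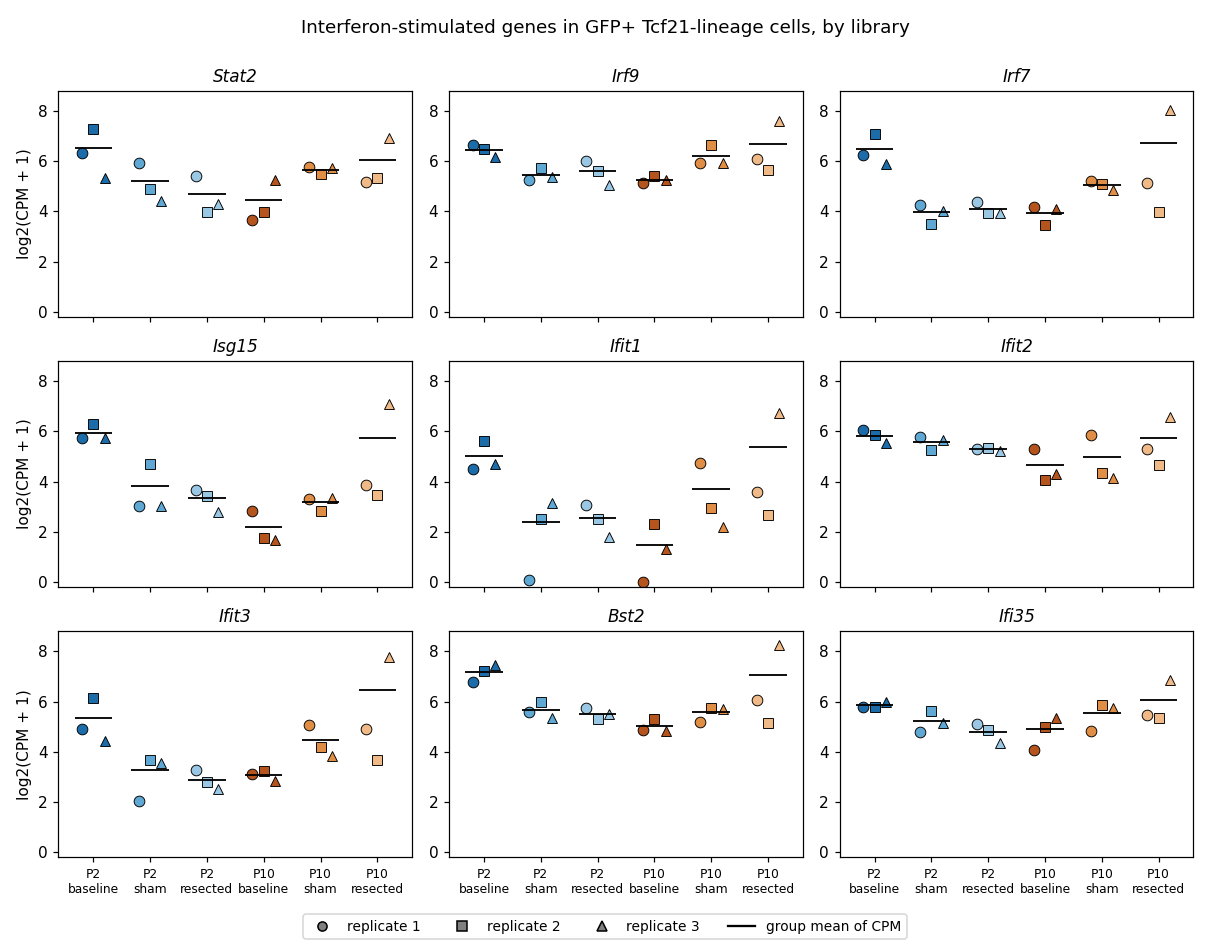
Each point is 1 library, with log2(CPM + 1) on the vertical axis and the 6 groups of 3 libraries on the horizontal axis, and the bar is the log2 of the group mean plus 1. The P2 baseline libraries lie above the P10 baseline libraries in all 9 panels, and P10 resected replicate 3 is the highest point in all panels but that of Stat2.

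Cell type markers also differed between the baseline groups. The summed level of 10 cardiomyocyte markers was 946 to 1332 CPM at P2 baseline and 440 to 635 CPM at P10 baseline, with 0 of the 10 at 0 in each P2 library and at most 1 at P10. The 11 fibroblast markers summed to 58906 to 71871 CPM at P2 and 83183 to 123274 CPM at P10, and the 7 mural markers to 293 to 439 CPM and 743 to 1397 CPM. The 5 neutrophil markers summed to 13.5, 12.1 and 0 CPM in the P2 baseline libraries, the highest mean of the 6 groups, and to at most 0.296 CPM at P10 baseline. All 4 neutrophil markers tested were lower at P10, with 2 at an unadjusted p under 0.05 and none called, and in P2 baseline replicate 3 all 5 were at 0. The 16 macrophage and monocyte markers summed to 14.6 to 71.4 CPM there and to 20.1 to 245 CPM at P10, and in P2 baseline replicate 3, 11 of the 16 were at 0, Adgre1, Csf1r and Ptprc among them. The 9 genes summed to 545 CPM in that library, against 583 and 832 CPM in replicates 1 and 2. It had the lowest of the 3 values for Ifit2, Ifit3, Stat2, Irf7 and Irf9 and the highest for Bst2 and Ifi35. The 9 lymphoid and plasmacytoid markers summed to at most 0.552 CPM at P2 baseline, where 8 or all 9 were at 0. The 5 erythroid markers summed to 25.0 to 47.2 CPM at P2 baseline and 46.8 to 158 CPM at P10, all 5 with higher fitted means at P10 and 4 at an unadjusted p under 0.05. The 6 epicardial markers summed to 15.1, 3.49 and 5.79 CPM at P2 baseline and to 0, 2.19 and 3.26 CPM at P10, and all 5 tested had lower fitted means at P10, 1 with an unadjusted p under 0.05. The part of the cardiomyocyte, fibroblast, mural, erythroid, epicardial, neutrophil and macrophage markers in the result was not tested.

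The P2 sham libraries, taken 3 days after surgery, were compared with P2 baseline, and none of the 9 genes was called by edgeR. All 9 genes had lower fitted means in P2 sham than in P2 baseline hearts, and the ranges were separate for 7 of them, against 885 of all genes tested in that direction (5.47%). Irf7 was at 18.3, 10.2 and 15.1 CPM in the P2 sham libraries, below every P2 baseline value. It had the smallest p of the 9 genes, with a log2 fold change of -2.60 (SE 0.70, unadjusted p = 0.00176 and adjusted p = 0.416 by edgeR). Isg15 was at 7.24, 24.8 and 7.18 CPM, a log2 fold change of -2.21 (SE 0.78). Stat2 and Ifit2 were the exceptions, with P2 sham values up to 60.0 and 53.6 CPM that lay within the P2 baseline range.

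No gene was called between P2 sham and P2 baseline by edgeR (0% of those tested), although 1229 genes, 7 of the 9 among them, had an unadjusted p under 0.05. DESeq2 called 138 genes (0.853%) and Irf7 was one of them, while voom with sample weights called 0. Without P10 resected replicate 3, edgeR called 2 genes (0.0116%), again including Irf7 (adjusted p = 0.0461). The comparison holds surgery together with 3 days of growth and of time since tamoxifen, which cannot be told apart. It shares its P2 baseline libraries with the comparison of ages. The 5 erythroid markers summed to 25.0 to 47.2 CPM at P2 baseline and 51.0 to 304 CPM in P2 sham, with 4 of 5 at an unadjusted p under 0.05 and 3 with separate ranges. The 7 mural markers summed to 317 to 798 CPM in P2 sham, and 3 of the 7 were separate and higher than at P2 baseline. The part of these differences in the result was not tested.

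Between P10 sham and P10 baseline none of the 9 genes was called either. This comparison too holds surgery together with 3 days of growth and of time since tamoxifen, which cannot be told apart. All 9 genes had higher fitted means in P10 sham than in P10 baseline hearts, and 5 had separate ranges (Isg15, Irf7, Stat2, Irf9 and Ifit3), against 864 of all genes tested (5.34%). Irf7 was at 35.6, 32.6 and 28.1 CPM after sham surgery, each above the 10.1 to 16.9 CPM of P10 baseline, with a log2 fold change of 1.16 (SE 0.68, edgeR adjusted p = 0.762). Irf9 was at 59.8, 98.3 and 58.9 CPM, each above the 34.0 to 41.0 CPM of P10 baseline. Its log2 fold change of 0.95 (SE 0.40) had the smallest p of the 9 genes (unadjusted p = 0.0306 and adjusted p = 0.649 by edgeR). EdgeR called 1 of all 16170 genes (0.00618%), which was none of the 9, and 1197 had an unadjusted p under 0.05. DESeq2 called 124 and voom 1, again none of the 9. Ifit2 was among the 4 that overlapped, with P10 sham values of 19.3 and 16.8 CPM below the 37.9 CPM of P10 baseline replicate 1. The 16 macrophage and monocyte markers summed to 103 to 389 CPM in P10 sham and 20.1 to 245 CPM at P10 baseline, and 12 of the 14 tested had higher fitted means in sham. The 5 neutrophil markers summed to at most 6.53 CPM in P10 sham and 0.296 CPM at P10 baseline, with all 4 tested higher by fitted mean. Of these lists 1 gene each had an unadjusted p under 0.05. In P10 sham 4 of 5 epicardial markers tested had higher fitted means and 8 of 10 cardiomyocyte markers lower ones. Each of these lists also had 1 gene at an unadjusted p under 0.05. All 7 mural markers had lower fitted means in P10 sham. The part of all these markers in the result was not tested.

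The difference between these changes from baseline to sham, at P10 minus at P2, was tested as an interaction. Each change holds surgery together with 3 days of growth, which cannot be told apart. The baseline libraries are those of the comparison of ages. The 9 estimates all lay above 0, from 0.62 for Ifit2 to 5.63 for Ifit1 on the log2 scale, with a median of 2.56 beside -0.08 over all genes. For Irf7 the interaction was 3.77 (SE 0.97, unadjusted p = 0.0012 and adjusted p = 0.429 by edgeR). EdgeR called no gene (0%), with 1067 genes and 8 of the 9 at an unadjusted p under 0.05. DESeq2 called 102 genes (0.631%), 1 of the 9 among them (Irf7), and voom called 0. Without P10 resected replicate 3, edgeR called 7 genes (0.0406%) and Irf7 was among them (adjusted p = 0.0168). The same interaction was below 0 for all 5 erythroid markers (3 at an unadjusted p under 0.05) and for 6 of 7 mural markers, and above 0 for all 4 neutrophil markers and 4 of 5 epicardial markers tested. Their part in the result was not tested.

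No difference between P2 resected and P2 sham passed the test. Isg15 was at 11.7, 9.66 and 5.84 CPM after resection at P2 and Irf7 at 19.6, 14.4 and 14.2 CPM, and both ranges overlapped those of P2 sham. Of the 9 genes, 3 were higher and 6 lower than in P2 sham, with log2 fold changes between -0.55 for Stat2 and 0.22 for Ifit1, and none had an unadjusted p under 0.05. EdgeR called 0% of all genes, 730 had an unadjusted p under 0.05, DESeq2 called 25 and voom 0, none of them one of the 9. The intervals stay wide. For Irf7 the 95% interval ran from -1.27 to 1.55 and for Isg15 from -2.11 to 1.05 on the log2 scale.

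After resection at P10 the 3 libraries disagreed. All 9 genes were higher in replicate 3 than in replicates 1 and 2. Ifit3 was at 28.6 and 11.8 CPM in replicates 1 and 2 and at 217 CPM in replicate 3. Irf7 was at 34.1 and 14.9 CPM and then at 264 CPM, and Isg15 at 13.5 and 10.1 CPM and then at 134 CPM. The ratio of replicate 3 to the mean of replicates 1 and 2 was between 2.80 for Ifi35 and 12.98 for Ifit1, and it exceeded 10 for Ifit1, Isg15, Ifit3 and Irf7. Against the P2 baseline mean, replicate 3 was 1.31-fold (Stat2) to 5.48-fold (Ifit3) higher.

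The markers of other cell types in that library were as follows. Its 16 macrophage and monocyte markers summed to 79.9 CPM, at rank 12 of 18 from the highest, where P10 resected replicates 1 and 2 had 475 and 1111 CPM. Among these the pan-leukocyte gene Ptprc was at 2.25 CPM, against 4.32 and 9.85 CPM in the other replicates, and Csf1r was at 2.41 CPM against 33.6 and 66.0 CPM. Ly6c2, a monocyte gene on the same list, was at 2.25 CPM there, the highest of the 18 libraries, against 0 and 0.0636 CPM. The 5 neutrophil markers summed to 10.6 CPM, at rank 4 of 18. S100a8 was at 4.58 CPM and S100a9 at 5.59 CPM, each above both other replicates, while Retnlg was at 0, as was Cxcr2 in all 18 libraries. The 9 endothelial markers summed to 655 CPM, at rank 3. The 10 cardiomyocyte markers summed to 208 CPM, at rank 17. Of the 9 lymphoid and plasmacytoid markers 6 were at 0, Siglech, Cd3e and Nkg7 among them, and the list summed to 0.699 CPM. Its fibroblast markers summed to 115665 CPM, at rank 4. The part of the neutrophil, monocyte and endothelial markers in the high values was not tested.

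Against P10 sham, all 9 genes had higher fitted means after resection, by 0.38 (Stat2) to 2.69 (Isg15) on the log2 scale. Only Isg15 had separate ranges among the 9, against 911 of all genes tested (5.63%). No gene was called (edgeR, 0%), 661 genes and 4 of the 9 had an unadjusted p under 0.05, DESeq2 called 39 and voom 0, none of them one of the 9. All 5 erythroid markers had higher fitted means after resection, 2 of them at an unadjusted p under 0.05 (edgeR). So had all 5 epicardial and all 4 neutrophil markers tested, 12 of 14 macrophage and monocyte markers tested and 9 of 10 cardiomyocyte markers. The part of these markers in the result was not tested. Without replicate 3 the median log2 fold change of the 9 genes went from 1.52 to -0.15, with 7 genes lower and 2 higher. The direction against sham thus rested on that library for 7 of the 9. Isg15 was at 13.5 and 10.1 CPM in replicates 1 and 2, both above the P10 sham values of 8.99, 6.14 and 9.19 CPM.

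Ifit3 was the gene called between the resected groups of the 2 ages. It was at 8.62, 5.94 and 4.68 CPM in the P2 resected libraries, and all 3 P10 resected values lay above these. Its log2 fold change was 3.74 (SE 0.85, edgeR adjusted p = 0.0456), and it was 1.67 (adjusted p = 0.637) without P10 resected replicate 3. With the replicate number as a block it was 3.59 (edgeR adjusted p = 0.0789). The call was also lost without any single P2 resected library, and without P2 baseline replicate 1, P2 sham replicate 3, P10 baseline replicate 2 or 3, or P10 sham replicate 2 or 3. All 9 genes were higher at P10, 2 with separate ranges (Ifit3 and Ifi35) against 1721 of all genes tested (10.6%). The call of 1 in 9 stood beside 139 called of all genes (0.86%). Without replicate 3 none of the 9 and 0.296% of all genes were called, 8 of the 9 were higher and the median log2 fold change went from 1.57 to 0.60. DESeq2 called Ifit3, Irf7 and Bst2, at 3.12% of all genes. Voom called none of the 9 (adjusted p = 0.0857 for Ifit3), and neither did edgeR with only the groups compared (adjusted p = 0.0883 for Ifit3). The 5 erythroid markers summed to 83.5 to 478 CPM in P10 resected and 43.9 to 115 CPM in P2 resected libraries, all 5 with higher fitted means at P10 and 4 at an unadjusted p under 0.05. Of the macrophage and monocyte markers 13 of 14 tested, and of the epicardial markers 4 of 5 tested, had higher fitted means at P10, none at an unadjusted p under 0.05. The part of these markers in the result was not tested. Ifit3 shares 41.1% of its 75-base windows with its neighbour Ifit3b, and the counter by default leaves out reads that map to more than 1 place, so its level is uncertain. Ifi35 shares 16.8% of its exon bases with Gm11626 on the other strand, and the counting did not use strand.

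**Figure D2:**
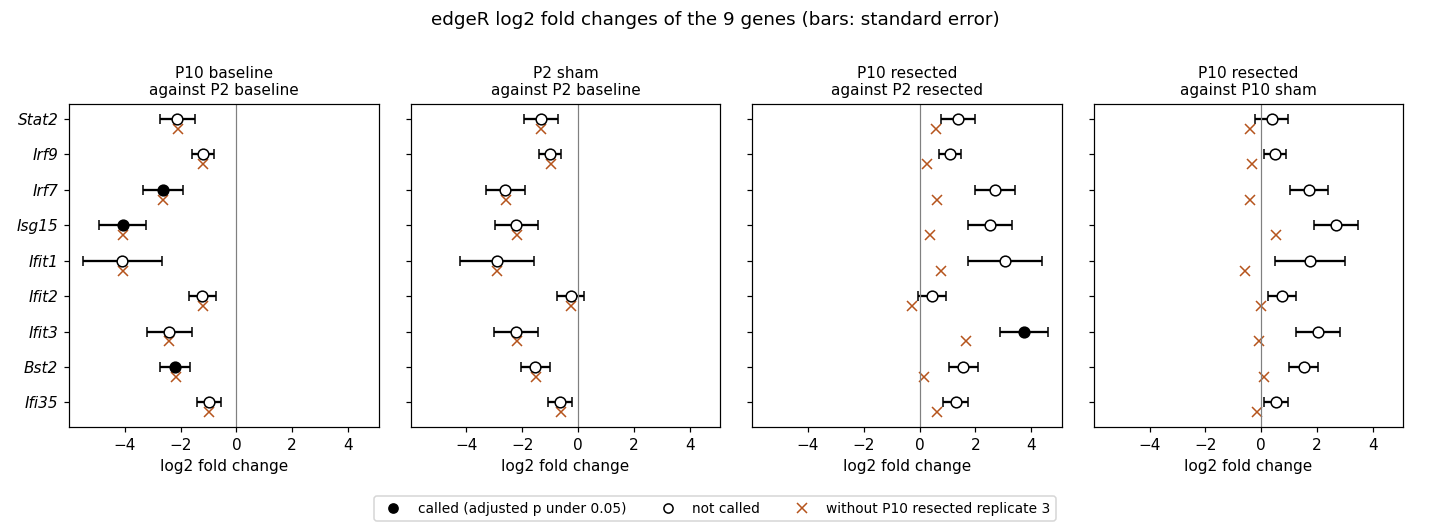
Points are edgeR log2 fold changes of the 9 genes on the horizontal axis with bars of 1 SE, filled where the adjusted p was under 0.05, and crosses give the value without P10 resected replicate 3. The crosses lie on the points in both comparisons with P2 baseline, and between -0.59 and 0.53 in the comparison of P10 resected with P10 sham.

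Between the sham groups of the 2 ages none of the 9 genes was called, while 515 of all genes were (3.18%). Of the 9, 6 were higher and 3 lower at P10, from -0.69 for Isg15 to 1.54 for Ifit1, and DESeq2 and voom called none of them. The ranges were separate and higher at P10 for 3 (Irf7, Irf9 and Ifit3), against 1466 of all 16170 genes tested. Over the full windows, all P10 against all P2 libraries, edgeR called 13.5% of all genes and none of the 9, of which 5 were higher and 4 lower. Irf7 was at 10.2 to 133 CPM in the P2 window and at 10.1 to 264 CPM in the P10 window. The window comparison sets a P2 mean that holds the high P2 baseline against a P10 mean that holds the high P10 resected replicate 3. Without the latter, 8 of the 9 were lower at P10 and Isg15 and Bst2 were called lower, beside 9.93% of all genes. The median log2 fold change of the 9, 0.17 as fitted, was also below 0 by voom (-0.09, with Ifit2 called lower), without P10 baseline replicate 2 (-0.03) and without P10 sham replicate 1 (-0.12). The difference between the resection effects at P10 and at P2 was above 0 for all 9 genes, by 0.34 (Irf9) to 3.22 (Isg15) on the log2 scale. EdgeR called no gene for it (0%), with 465 genes and 3 of the 9 at an unadjusted p under 0.05, and DESeq2 called 24 and voom 0. Without P10 resected replicate 3, 3 of the 9 turned below 0 and the median went from 1.53 to 0.28. With all libraries this difference was above 0 for all 5 erythroid markers, 3 of them at an unadjusted p under 0.05 (edgeR). It was also above 0 for 9 of 10 cardiomyocyte markers and for all 4 neutrophil and 4 of 5 epicardial markers tested. It was below 0 for 11 of 14 macrophage and monocyte markers tested. The part of these markers in the result was not tested.

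The other genes of the pathway were taken from lists written down with earlier results of these data known, 117 genes in all, of which 102 were tested. None of the 10 interferon ligand genes, Ifnb1 and Ifng included, had a read in any library. With 10462737 reads in the shallowest library, up to 3 reads, or 0.296 CPM, would be allowed there. The receptor genes Ifnar1 and Ifnar2 were expressed throughout. Ifnar1 averaged 117 ± 12.4 CPM over the P2 baseline libraries and 114 ± 12.1 CPM over those of P10 baseline. The fitted log2 difference between them was -0.04 (SE 0.18, edgeR adjusted p = 0.95). Irf3, which starts interferon transcription after viral sensing, differed by 0.20 (SE 0.31, edgeR adjusted p = 0.806).

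Usp18, which removes Isg15 from proteins and dampens receptor signalling, averaged 65.5 ± 20.4 CPM in un-manipulated P2 hearts and 4.16 ± 1.63 CPM in those at P10. Its log2 fold change was -3.99 (SE 0.73, edgeR adjusted p = 0.00458). It reached 127 CPM in P10 resected replicate 3, against 15.4 and 16.02 CPM in replicates 1 and 2.

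Of the 102 pathway genes tested, 18 were called lower at P10 than at P2 baseline and none higher, beside the 4.38% of all genes called. The largest differences named by rule were in Oas1a, Herc6, Usp18, Trim34a and Slfn9. Oas1a, an enzyme that makes the activator of RNase L, had 295 reads over the P2 baseline group and 3 over the P10 baseline group, so the P2 level was 74.7 times the P10 level with an exact 95% counting interval from 25.3 to 364. Herc6, the mouse ligase that attaches Isg15, fell by 4.27 on the log2 scale (SE 1.01, edgeR adjusted p = 0.0221). Trim34a had a log2 fold change of -3.98 and Slfn9 of -3.78. Among the 67 tested of 70 other interferon-stimulated genes, 14 were called lower, 61 had lower means and the median log2 fold change was -1.90. The sensing genes had 1 of 15 called lower, which was Ddx58, chosen here after its value was seen.

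In the remaining comparisons few pathway genes were called. Between the resected groups of the 2 ages Isg20 and Ifngr1 were called higher at P10, by 2.45 and 1.36 on the log2 scale. These 2 of 102 stood beside 0.86% of all genes called. The same pair was called between the sham groups (1.85 and 1.23), where Slfn9 had a log2 fold change of -3.13. Over the windows 11 were called higher, with Ifi205 (2.58), Isg20, Gbp2 (1.35), Ifngr1 (1.04) and Ifi27 (0.97), and 2 lower, Slfn9 (-2.82) and Cgas (-1.11). The 13 of 102 over the windows stood beside 13.5% of all genes called, and the 3 of 102 between the sham groups beside 3.18%, so both shares were near the background. Ifngr1 is a chain of the receptor for interferon gamma. Without P10 resected replicate 3 no pathway gene was called between the resected groups, where Isg20 was at 1.80 (edgeR adjusted p = 0.257) and Ifngr1 at 0.86 (adjusted p = 0.294 by edgeR). Over the windows 5 were then called higher and 6 lower, beside 9.93% of all genes called. Ifi205 (1.94, adjusted p = 0.114) and Gbp2 (0.92, adjusted p = 0.096) were no longer among those called by edgeR. Between the sham groups 5 were called higher and none lower, with Slfn9 at an adjusted p of 0.0523 by edgeR. The share over all genes in that fit is not given here. Between the baseline groups 25 were called lower and 1 higher, beside 3.97% of all genes called. No pathway gene was called by edgeR between resected and sham or sham and baseline hearts of one age, or in the interactions. Without that library 1 was called lower in P2 sham against P2 baseline, beside 0.0116% of all genes called. In the sham interaction 5 were called higher, beside 0.0406%. In P10 sham against P10 baseline 1 was called higher, and the share over all genes in that fit is not given here. Ifit3b, the near copy of Ifit3, was at 61.6 CPM in P10 resected replicate 3 and at 10.9 and 7.05 CPM in replicates 1 and 2.

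**Figure D3:**
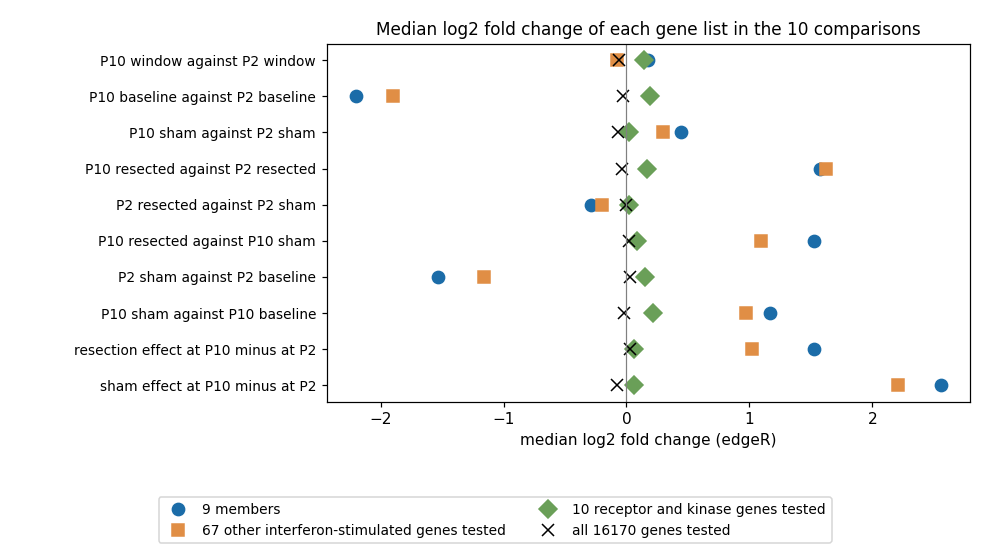
Each symbol is the median edgeR log2 fold change (horizontal axis) of a gene list in 1 of the 10 comparisons (vertical axis). The 9 genes and the 67 other interferon-stimulated genes lie on the same side of 0 in 9 of the comparisons, with the exception of the windows, while the 10 receptor and kinase genes and all 16170 genes stay between -0.08 and 0.21.

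The 9 genes varied together across libraries. The 36 pairwise Pearson correlations of log2 CPM over the 18 libraries ran from 0.20 (Ifit2 with Ifi35) to 0.92 (Isg15 with Bst2), with a median of 0.73. All points share the TMM scaling, and these values are a description without a test. Without P10 resected replicate 3 the median was 0.63, and over the 14 libraries without it and without P2 baseline it was 0.35, with Ifit2 and Ifi35 at -0.47. Ifit2 stood most apart from the others, with a median correlation of 0.47 with the other 8 genes.

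The 10 genes most like the 9, by Pearson correlation of log2 CPM with the mean of their z-scores over the 18 libraries, were Rtp4 (0.99), Xaf1 (0.94), Usp18 (0.94), Oasl2, Parp9, Sp100, Irgm1, Lgals3bp, Gbp3 and Igtp (0.87). All 10 were on the pathway lists, and of the 100 genes with the highest correlation outside the 9, 47 were. Without P10 resected replicate 3 these 10 correlations were 0.80 to 0.98. Rtp4 had a mean of 69.0 CPM at P2 baseline, 204 CPM in P10 resected replicate 3 and a median of 14.9 CPM in the other 14 libraries. Lgals3bp had 396 CPM, 1640 CPM and 200 CPM in the same order.

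**Figure D4:**
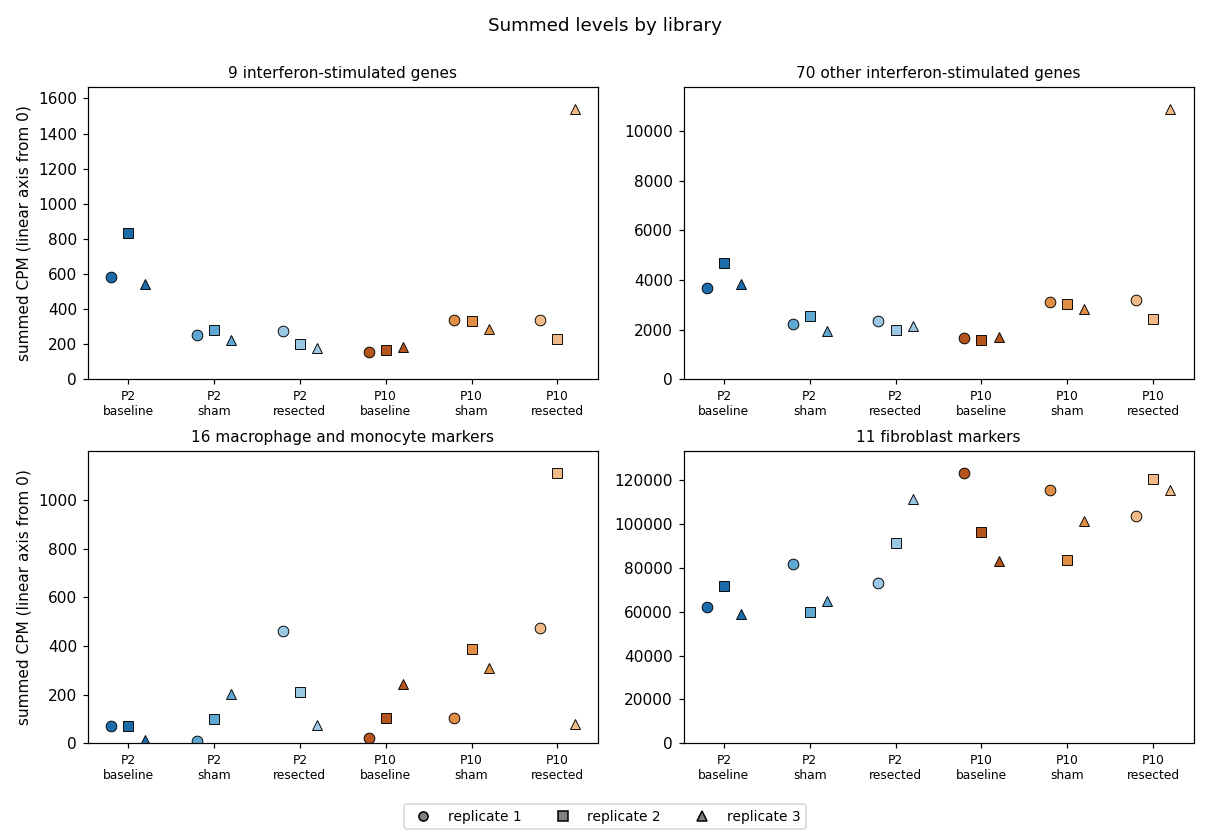
Summed CPM (vertical axes, linear from 0) of 4 gene lists in each library, by group. The 9 genes and the 70 other interferon-stimulated genes are highest in P10 resected replicate 3 and next highest in the 3 P2 baseline libraries, whereas the macrophage and monocyte markers are highest in P10 resected replicate 2.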

How the data were processed

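Bulk RNA was sequenced from sorted GFP+ cells in 18 libraries. The authors trimmed single-end reads with fastp 0.20.0, aligned them with STAR 2.7.0f to GRCm38.p6 and deposited raw counts per gene symbol made with featureCounts (Subread 1.6.4), without use of strand. Groups were taken from the labels. Totals of 10462737 to 22980554 counts per library set the precision, and intervals and floors of 3 counts cover counting error only.

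Counts were fitted in R 4.3.3 with edgeR 4.0.16 (quasi-likelihood test, TMM, 1 mean per group, all 18 libraries in 1 fit). Genes were kept by filterByExpr (minimum count 10, minimum total 15), and p-values were Benjamini-Hochberg adjusted over all 16170 genes kept, called under 0.05, in 10 comparisons. A log2 fold change is the fitted value, and its SE is derived from the F statistic. Log2 CPM used a prior count of 2. DESeq2 1.42.0 and limma 3.58.1 (voom) served as alternatives, beside other size factors, no filter, only the groups compared, a replicate block and leaving out each library. The fits were tested on simulated data.

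The 9 genes and all lists were chosen with earlier results of these data known. Beside the 9 genes, Ifnar1, Ifnar2, Ifnb1, Irf3, Usp18 and Ifit3b were always named (1 further gene of this rule is not reported here), with up to 5 called pathway genes of largest change per direction and comparison and the 10 genes of highest likeness. Same-numbered libraries correlated at -0.13 to 0.33 over 21 pairs, with all 3 pairs over 0.1 in 2 of 7 comparisons, and the labels do not say what a number marks. No pair of replicates differed by sampling noise alone (chi-square per gene 34.2 to 295).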

Additional observations from a re-analysis of the deposited data

How the results depend on the processing

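The counts of the 9 genes called kept their size under RLE size factors in every comparison. In P10 against P2 baseline, 3 were called, and 5 by DESeq2, 8 with no filter on low counts, 6 by voom, and 0 to 6 when 1 library was left out. Between the resected groups 1 was called, and 3 by DESeq2, 7 with no filter, 0 by voom, 0 with only the groups compared, and 0 to 3 when 1 library was left out. With the replicate number as a block the count there was 0, and the block changed no other call count of the 9 genes. For the windows the count of 0 became 1 with no filter, 1 by voom and 0 to 2 when 1 library was left out. For P2 sham against P2 baseline it became 1 by DESeq2, 5 with no filter and 0 to 1 when 1 library was left out. For the sham interaction it became 1 by DESeq2, 7 with no filter, 1 with only the groups compared and 0 to 1 when 1 library was left out. With no filter it became 4 for P10 resected against P10 sham, 1 for P10 sham against P10 baseline and 1 for the resection interaction. Without the filter edgeR fitted 28906 genes and its prior degrees of freedom went from 5.29 to 675. Over all genes, 709 calls between the baseline groups became 1573 by DESeq2, 1155 with no filter, 3645 by voom and 295 with only the groups compared, and 139 between the resected groups became 505, 526, 908 and 332. Between the sham groups 515 became 1182, 911, 707 and 125 in the same order, and over the windows 2183 became 4569 by voom. With no filter, 24 to 171 genes were called in the 6 remaining comparisons, and with only the groups compared 5 were in the sham interaction. The fit of only the groups compared was not run for the windows, which hold all groups. Of the single-gene results under the alternatives, 243 stayed on their side of the threshold with their direction, 10 moved past it and 31 lost their call. The causes were not tested. Ifit1 had no read in 1 library, so a level under 0.182 CPM could not be told from 0 there.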
